A study of Mus musculus with 17 samples.

Results

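Interleukin-10, its 2 receptor chains, a JAK kinase, the transcription factor STAT3 and 3 SOCS-family inhibitors were followed in mouse macrophages. The 8 genes were taken by name from a list of cytokine feedback genes (Il10, Il10ra, Il10rb, Jak2, Stat3, Socs1, Socs3 and Cish), and all 8 were found among the 55401 gene identifiers of the count table. All 8 passed the filter on low counts in every comparison.

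IL-10 is a cytokine that macrophages release and respond to, and it restrains their inflammatory output. It binds a receptor made of the chains encoded by Il10ra and Il10rb, whose bound kinases JAK1 and TYK2 phosphorylate STAT3, and STAT3 then enters the nucleus and raises the transcription of Socs3 among other genes. SOCS proteins close a feedback loop: SOCS1 blocks JAK kinases and limits interferon signals, SOCS3 binds gp130 and stops IL-6 signals, and CIS, the product of Cish, limits STAT5 signals of cytokines such as GM-CSF. JAK2 serves the receptors of interferon-gamma and GM-CSF rather than that of IL-10. Transcripts were measured here, and the activity of JAK and STAT proteins depends on phosphorylation, which was not measured.

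RNA was sequenced from primary bone marrow-derived macrophages in 17 libraries that form 6 groups, with 13503869 to 19391623 counts per library. Cells of the C57BL/6J strain gave 4 groups: a control (3 libraries) for which the labels give no treatment, medium conditioned by B16F10 melanoma cells (3 libraries), that medium with KCl (3 libraries) and that medium with NaCl (2 libraries). The protocol gives 6 h of treatment and a final concentration of 40 mM for each salt. Floxed Kcnj2f/f cells (3 libraries) and Lyz2-Cre-Kcnj2f/f cells (3 libraries), called the knockout below, received conditioned medium with KCl labelled isotonic. The salt concentration of that isotonic medium is not given separately. Lyz2-Cre is a myeloid driver inserted in the Lyz2 gene, and Kcnj2 is the gene of Kir2.1, an inward rectifier of potassium current. The age and sex of the mice were not stated, and nothing says that the libraries of a group came from separate animals or cultures, so p-values measure the spread between these libraries, which may be technical.

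Levels below are CPM, counts relative to the library size, scaled by the trimmed mean of M values over all 17 libraries. They follow transcript length as well as abundance, so levels are compared between groups of a gene and never between genes. Ranges of libraries are also compared between groups, and how often they separate or overlap over all genes was not counted in any comparison. In these bulk libraries fewer cells of a type and less RNA per cell cannot be told apart. All 7 macrophage markers were detected, with a summed level of 24274 to 27566 CPM in the 14 libraries without Cre and 10853 to 12035 CPM in the knockout, where Lyz2 was at 7167 to 8372 CPM against 19802 to 24444 CPM in the floxed cells. Lyz2 made up most of the sum in every group, so the sum says little about the other markers, which moved either way. From control to conditioned medium, mean Adgre1 went from 954 to 2353 CPM, Fcgr1 from 91.0 to 31.7 CPM and Mertk from 78.9 to 34.7 CPM. Kcnj2 was at 173, 139 and 147 CPM in the floxed libraries and at 19.7, 24.4 and 29.4 CPM in the knockout, a difference of −2.64 on the log2 scale (SE 0.19, adjusted p = 0.0150). Libraries also differed in how strongly counts depended on exon length, given here as the slope of a gene's log2 level against its log2 length relative to the average library. This slope was 0.0291 to 0.1338 in the control and conditioned medium libraries, −0.116 to 0.0173 with KCl, 0.0886 to 0.1467 with NaCl, and −0.2018 to −0.0103 in 5 of the 6 isotonic libraries. The other isotonic library, floxed library 1, stood apart at 0.1322.

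On GRCm38 (GENCODE M21) Il10 lies at chr1:131019845-131024974 on the plus strand, Il10ra at chr9:45253837-45269149 on the minus strand and Il10rb at chr16:91406164-91425834 on the plus strand. Jak2 lies at chr19:29251828-29313080 (plus strand) and Stat3 at chr11:100885098-100939540 (minus strand). Socs1 is at chr16:10782240-10785536 (minus strand), Socs3 at chr11:117966079-117970047 (minus strand) and Cish at chr9:107296026-107302784 (plus strand).

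Promoter windows from 250 bases before to 50 bases after the start site were taken from RefSeq on GRCm38.p6 for 5 of the 8 genes (Socs1, Socs3, Cish, Stat3 and Jak2). Those of the 3 inhibitors are shown because these genes had the largest log2 fold changes of the 8 in conditioned medium. Capitals mark matches on either strand to the STAT element TTCNNNGAA or to the interferon regulatory factor (IRF) element (GAAA, any pair of bases, and GAAA again), where N is any base, and the rest is in lower case. Of 32851 RefSeq mouse promoter windows of this length, 8.30% hold the STAT element and 3.44% the IRF element. The windows are Socs1 at chr16:10785487-10785786 (minus strand), Socs3 at chr11:117969317-117969616 (minus strand) and Cish at chr9:107296409-107296708 (plus strand), each written 5′ to 3′ on the strand of its gene. Those of Socs3 and Cish lie wholly inside the GENCODE gene spans given above. Their RefSeq start sites are thus downstream of the ends where those spans begin.
Socs1: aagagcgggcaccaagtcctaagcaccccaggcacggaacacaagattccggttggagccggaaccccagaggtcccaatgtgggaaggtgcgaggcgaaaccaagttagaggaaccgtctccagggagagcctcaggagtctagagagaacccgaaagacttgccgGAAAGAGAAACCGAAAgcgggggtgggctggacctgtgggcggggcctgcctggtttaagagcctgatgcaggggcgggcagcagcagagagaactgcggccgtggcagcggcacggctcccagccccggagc
Socs3: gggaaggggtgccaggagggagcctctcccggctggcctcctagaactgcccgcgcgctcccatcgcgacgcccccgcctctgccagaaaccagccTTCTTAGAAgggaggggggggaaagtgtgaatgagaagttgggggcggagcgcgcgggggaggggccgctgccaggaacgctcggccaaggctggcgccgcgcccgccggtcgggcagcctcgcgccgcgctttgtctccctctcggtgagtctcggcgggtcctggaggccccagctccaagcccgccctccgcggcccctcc
Cish: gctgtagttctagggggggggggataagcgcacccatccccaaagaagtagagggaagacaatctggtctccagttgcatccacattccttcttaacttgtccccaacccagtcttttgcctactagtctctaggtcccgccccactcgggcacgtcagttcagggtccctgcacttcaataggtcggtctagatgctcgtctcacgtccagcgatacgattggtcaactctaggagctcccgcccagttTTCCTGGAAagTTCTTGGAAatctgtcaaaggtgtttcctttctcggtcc
The Socs1 window holds 2 overlapping IRF matches between 83 and 68 bases before the start and no STAT match. The Socs3 window holds 1 STAT match, TTCTTAGAA, from 154 to 146 bases before the start. Cish has 2 STAT matches, TTCCTGGAA at the start base and TTCTTGGAA beginning 11 bases after it, and 0.457% of all windows hold 2 or more. The Stat3 and Jak2 windows hold these letters nowhere. A match describes the sequence and shows no binding.

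Conditioned medium raised Il10, Jak2 and the 3 inhibitors strongly. Of the 8 genes, 7 were higher than in the control and 1 was lower at an adjusted p under 0.05 (edgeR's quasi-likelihood test, Benjamini-Hochberg adjustment over all genes). Over all 14519 genes tested, 27.2% were called higher and 26.4% lower, so a call alone was common in this comparison. The median log2 fold change was 2.19 over the 8 genes and −0.04 over all genes. Scaling by total counts moved the median of all genes by −0.34 and the higher share of the calls from 50.8% to 24.9%.

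**Figure D1:**
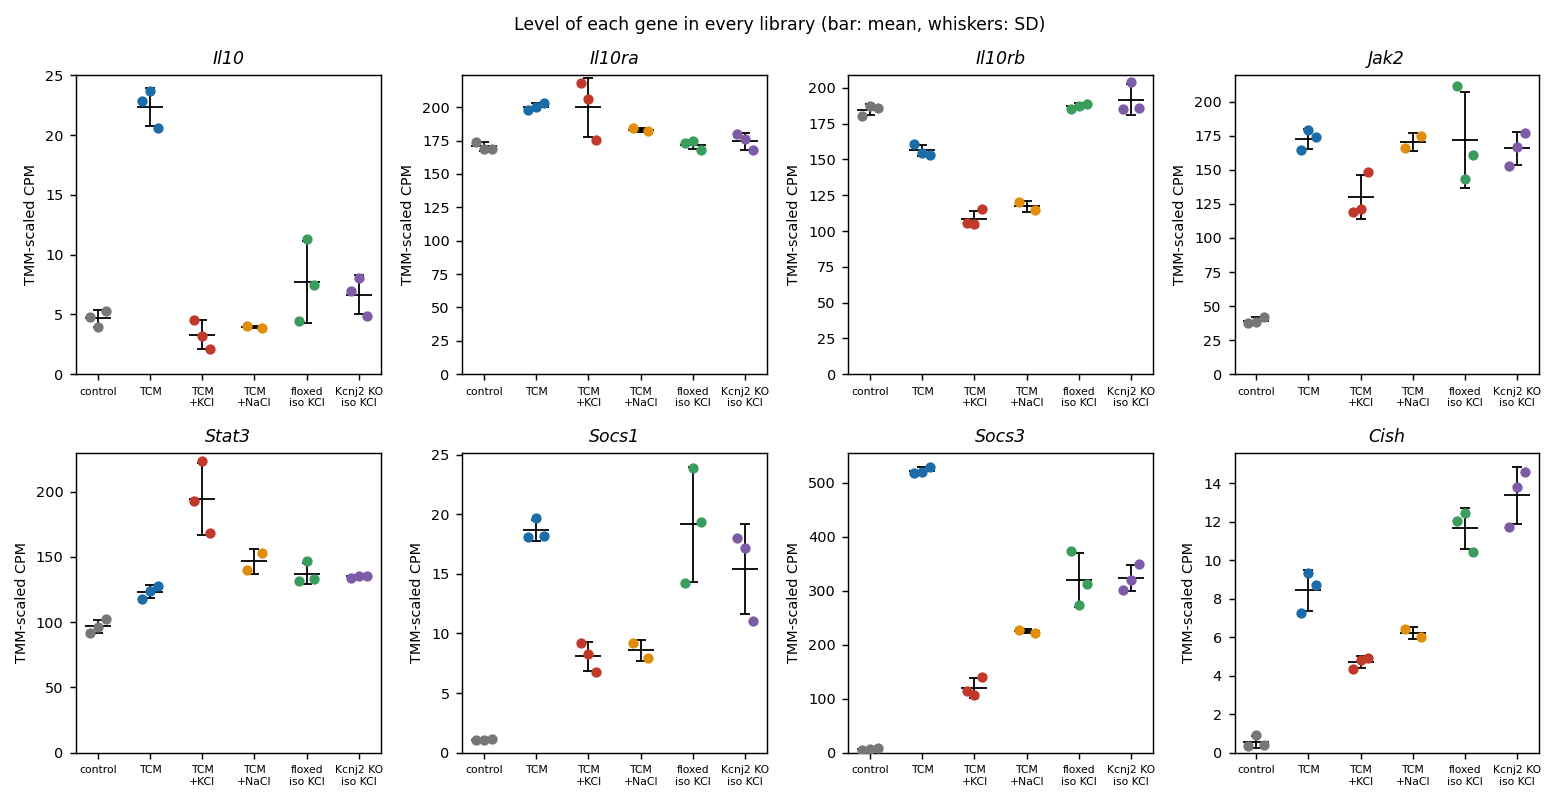
Level of each gene in TMM-scaled CPM (vertical axes, linear, from 0) in the 6 groups, with 1 point per library, the group mean as a bar and the SD as whiskers. Il10 stood at 20.6 to 23.7 CPM in conditioned medium and at no more than 11.3 CPM in any other library, while Stat3 was highest with KCl.

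Il10 was at 4.77, 3.94 and 5.30 CPM in the control libraries and at 22.9, 23.7 and 20.6 CPM in conditioned medium. The groups did not overlap, and the level was 4.76-fold higher in conditioned medium (log2 fold change 2.25, SE 0.19, adjusted p = 2.5e-07). Csf3r, a G-CSF receptor gene of neutrophils that macrophages can also transcribe, made up most of the summed level of 8 neutrophil markers in both groups. That sum rose with Il10 between these groups, at 53.4 to 55.8 CPM in the control and 158 to 173 CPM in conditioned medium. In isotonic KCl the sum was 108 to 168 CPM in the floxed cells and 114 to 150 CPM in the knockout. Mean Il10 there was 7.7 and 6.7 CPM, in groups that also differ from the others in strain label. The part of this sum in the Il10 levels was not tested. Retnlg, a defining neutrophil gene, had no count in any library, and Ly6g, Mpo, Elane and Cxcr2 were near 0. S100a8, an alarmin gene, had mean levels of 4.95 CPM in the control, 16.1 CPM in conditioned medium, 18.2 CPM with KCl and 20.2 CPM with NaCl, and S100a9 had 1.36 to 2.34 CPM in these groups.

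The receptor chains moved little, and in opposite directions. Il10ra, the ligand-binding chain, was at 174, 169 and 169 CPM in the control and at 198, 200.2 and 203 CPM in conditioned medium. The ranges were separate, but the difference was small (log2 fold change 0.22, SE 0.08, adjusted p = 0.0308), and its sign depended on the scaling: it was −0.11 with total counts (adjusted p = 0.209). Its call was also lost without any 1 of the control or conditioned medium libraries (adjusted p from 0.0633 to 0.104). Il10rb, the chain shared with the receptors of IL-22 and interferon lambda, fell from 181, 188 and 186 CPM to 161, 155 and 153 CPM (log2 fold change −0.25, SE 0.07, adjusted p = 0.00753), again with no overlap.

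Jak2 rose from 37.5, 38.4 and 42.0 CPM to 165, 179 and 174 CPM, a 4.37-fold difference (log2 fold change 2.13, SE 0.10, adjusted p = 3.9e-10). Every conditioned medium library was far above every control library. Stat3 changed less, from 92.0, 96.2 and 102 CPM to 118, 124 and 128 CPM (log2 fold change 0.34, SE 0.10, adjusted p = 0.00839). Its ranges were separate, yet with total-count scaling the log2 fold change was 0.00 (adjusted p = 0.967). Exons of Stat3 overlap those of Stat5a, the gene of another STAT protein, on the opposite strand, and the strand setting of the counting is not given in the sources used here, so reads in the overlap cannot be assigned with certainty.

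Socs3 changed most of the 8. It was at 5.32, 6.06 and 8.17 CPM in the control and at 519, 521 and 530 CPM in conditioned medium, 79.5-fold higher (log2 fold change 6.31, SE 0.16, adjusted p = 1.5e-12). Socs1 was at 1.06, 1.02 and 1.15 CPM in the control, from 23, 24 and 28 counts, and at 18.1, 19.7 and 18.2 CPM in conditioned medium. That was 17.2-fold higher (log2 fold change 4.10, SE 0.16, adjusted p = 9.6e-11). Cish started from 7, 21 and 10 counts, or 0.321, 0.890 and 0.411 CPM, and reached 7.26, 9.35 and 8.73 CPM, a log2 fold change of 3.93 (SE 0.26, adjusted p = 2.0e-08). For none of the 3 inhibitors did a conditioned medium library overlap the control range.

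**Figure D2:**
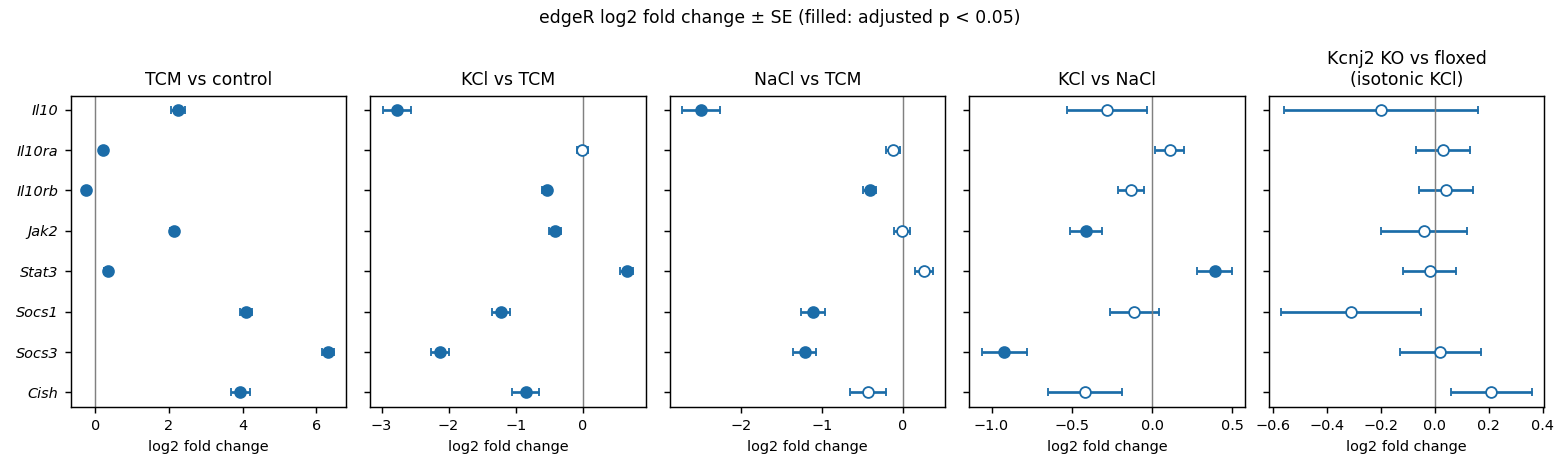
Log2 fold change of each gene (horizontal axes, a separate scale in each panel) with its SE as a whisker in 5 comparisons, where filled points had an adjusted p under 0.05. Socs3 reached 6.31 in conditioned medium against control, Il10 was at −2.77 with KCl and −2.49 with NaCl, and no point is filled for the knockout against floxed cells.

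Adding KCl to the conditioned medium lowered 6 of the 8 genes, Il10 most, and raised Stat3. Over all 14519 genes, 26.6% were called higher and 27.4% lower. The median log2 fold change was −0.69 over the 8 genes and −0.01 over all genes. With total-count scaling the median of all genes moved by −0.21, and 32.6% of calls were higher in place of 49.3%. The KCl comparison shares its conditioned medium libraries with the comparison against control, so a rise there and a fall here are not independent of each other.

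Il10 was at 4.57, 3.21 and 2.13 CPM with KCl, so every KCl library lay below every conditioned medium library. The level was 6.83-fold lower than in conditioned medium alone (log2 fold change −2.77, SE 0.21, adjusted p = 2.2e-07). The neutrophil marker sum was 37.7 to 44.5 CPM with KCl, below the 158 to 173 CPM of conditioned medium, with mean Csf3r at 19.4 CPM against 147 CPM and S100a8 at 18.2 CPM against 16.1 CPM. The dendritic cell marker sum was 16.6 to 24.2 CPM against 3.22 to 5.29 CPM, mostly Xcr1 with KCl. The sum of 5 stromal markers was 248 to 391 CPM with KCl and 407 to 447 CPM in conditioned medium, against 475 to 594 CPM in the control, mostly Col1a1 and Col1a2. Means of the other stromal markers were higher with KCl than in conditioned medium: Dcn at 78.6 against 62.6 CPM, Pdgfra at 12.9 against 11.1 CPM and Lum at 2.09 against 1.41 CPM. The part of these marker sums in the results was not tested.

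Il10ra was at 218, 206 and 175 CPM with KCl, a range that contains all the conditioned medium values, and its log2 fold change was −0.01 with a 95% interval of −0.19 to 0.16 (adjusted p = 0.897). With total-count scaling it was called lower at −0.23 (adjusted p = 0.0201). Il10rb was at 105, 105 and 115 CPM, below all conditioned medium values, and fell by 0.54 on the log2 scale (SE 0.07, adjusted p = 2.7e-05). The difference between the log2 fold changes of the 2 chains was not tested.

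Jak2 was at 119, 121 and 148 CPM, below every conditioned medium library (log2 fold change −0.42, SE 0.09, adjusted p = 0.00161). With the length slope as a covariate its log2 fold change was −0.16 (adjusted p = 0.144). Stat3 was the only one of the 8 genes called higher, at 193, 223 and 168 CPM, all above the highest conditioned medium value. Its level was 1.57-fold that of conditioned medium alone (log2 fold change 0.65, SE 0.10, adjusted p = 8.4e-05).

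Socs3 was at 114, 106 and 140 CPM with KCl, 4.38-fold lower than in conditioned medium alone (log2 fold change −2.13, SE 0.13, adjusted p = 3.3e-08). Socs1 was at 9.20, 8.29 and 6.75 CPM (log2 fold change −1.22, SE 0.13, adjusted p = 5.8e-06). Cish was at 4.36, 4.81 and 4.94 CPM (log2 fold change −0.85, SE 0.20, adjusted p = 0.00306). None of the KCl values of the 3 inhibitors reached the lowest conditioned medium value.

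NaCl at the same final concentration lowered 4 of the 8 genes and raised none. Over all genes 13.7% were called higher and 14.9% lower, and the median log2 fold change was −0.42 over the 8 genes and −0.01 over all genes. Total-count scaling moved that of all genes by −0.07, with 37.0% of calls higher in place of 48.0%. This comparison uses the same conditioned medium libraries as that of KCl.

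Il10 was at 4.03 and 3.89 CPM with NaCl, 5.61-fold lower than in conditioned medium alone (log2 fold change −2.49, SE 0.23, adjusted p = 4.9e-06). Both libraries lay below the conditioned medium range, and the neutrophil marker sum was 57.7 to 57.9 CPM, the dendritic cell marker sum 7.89 to 9.06 CPM and the stromal marker sum 400.2 to 451 CPM. Il10rb was at 120.1 and 114 CPM (log2 fold change −0.41, SE 0.08, adjusted p = 0.00153), and Il10ra was at 184 and 182 CPM. Il10ra lay below the conditioned medium range but did not pass the test, with a 95% interval of the log2 fold change of −0.32 to 0.07 (adjusted p = 0.344).

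Socs3 was at 228 and 222 CPM with NaCl, 2.31-fold lower than in conditioned medium alone (log2 fold change −1.21, SE 0.14, adjusted p = 3.8e-05), and Socs1 was at 9.22 and 7.95 CPM (log2 fold change −1.11, SE 0.15, adjusted p = 9.3e-05). Both genes were below the conditioned medium range in each NaCl library. Cish was at 6.44 and 6.00 CPM and did not pass the test (log2 fold change −0.43, 95% interval −0.90 to 0.04, adjusted p = 0.161). Both Cish values were below the conditioned medium range, and a fit of these groups alone gave an adjusted p of 0.0302.

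Jak2 was at 166 and 175 CPM with NaCl, inside the range of conditioned medium alone, with a 95% interval of the log2 fold change of −0.23 to 0.21 (adjusted p = 0.946). Stat3 was at 140.0 and 153 CPM, above the conditioned medium range, with a log2 fold change of 0.26 (SE 0.11, adjusted p = 0.0890). In a fit of these groups alone Stat3 passed the test with an adjusted p of 0.00141, as it did with the length slope as a covariate (adjusted p = 0.0160).

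Compared directly, KCl and NaCl differed in 3 of the 8 genes: Stat3 was higher with KCl, and Socs3 and Jak2 were lower. Over all genes 15.4% were called higher with KCl and 16.2% lower, and the median log2 fold change was −0.21 over the 8 genes and −0.04 over all genes. Total-count scaling moved that of all genes by −0.14, with 30.1% of calls higher in place of 48.6%. The log2 fold change of KCl against NaCl was −0.92 for Socs3 (SE 0.14, adjusted p = 0.001), 0.39 for Stat3 (SE 0.11, adjusted p = 0.0162) and −0.41 for Jak2 (SE 0.10, adjusted p = 0.0100). Values of the 2 salts did not overlap for any of these 3 genes, nor for Cish, which did not pass the test (adjusted p = 0.173). How often the ranges separate over all genes was not counted.

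These 3 calls depended on the fit. With only the 5 libraries of the 2 salts, none of the 8 genes passed (adjusted p = 0.0668 for Socs3, 0.120 for Stat3 and 0.112 for Jak2). With the length slope as a covariate, which did not overlap between the salts, none passed either (log2 fold change −0.47 for Socs3, 0.22 for Stat3 and −0.03 for Jak2). Stat3 also lost its call without NaCl library 1 (adjusted p = 0.139) or 2 (adjusted p = 0.0661), and Jak2 without NaCl library 2 (adjusted p = 0.104). For Il10 the 95% interval of the log2 fold change between the salts was −0.83 to 0.26, and for Socs1 it was −0.43 to 0.22.

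The C57BL/6J macrophages in conditioned medium with either salt at 40 mM were also set against the control. They had Il10 at 2.13 to 4.57 CPM, where the control had 3.94 to 5.30 CPM, while the inhibitors and Jak2 were above the control. These comparisons were added after the values had been seen. With KCl, 6 of the 8 genes were higher than in the control and 2 lower, where 33.7% of all genes were called higher and 35.2% lower. With NaCl, 5 were higher and 1 lower, where the shares were 28.5% and 29.6%. Scaling by total counts moved the median of all genes by −0.55 with KCl and −0.41 with NaCl, and the higher share of calls from 49.0% to 23.4% and from 49.1% to 24.9%.

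Socs3 was still 18.1-fold above the control with KCl (log2 fold change 4.18) and 34.4-fold with NaCl (log2 fold change 5.10). Socs1 had a log2 fold change of 2.88 with KCl and 2.99 with NaCl, Cish 3.08 and 3.50, and Jak2 1.71 and 2.11. No library given a salt overlapped the control range for these 4 genes, and such separation was not counted over all genes. The log2 fold change of Stat3 was 0.99 with KCl and 0.60 with NaCl, and that of Il10rb was −0.79 and −0.66. With total-count scaling Stat3 was not called with NaCl (log2 fold change 0.19, adjusted p = 0.0888).

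Il10 with NaCl did not differ from the control by the test, and the 95% interval of its log2 fold change was −0.74 to 0.27 (adjusted p = 0.405), although it was called lower with total-count scaling (log2 fold change −0.64, adjusted p = 0.0255). With KCl it was at −0.52 (SE 0.22, adjusted p = 0.0495), and the ranges of KCl and control overlapped. That call was lost with DESeq2 (adjusted p = 0.0510), in a fit of these groups alone (adjusted p = 0.119) and without KCl library 2 or 3 or control library 1 or 3 (adjusted p = 0.0844, 0.241, 0.0921 and 0.200), and the log2 fold change was −0.26 without KCl library 3. The log2 fold change of Il10ra against the control was 0.21 with KCl and 0.10 with NaCl, but −0.34 and −0.31 with total-count scaling, and its call with KCl was lost without KCl library 1 (adjusted p = 0.141) or control library 1 or 2 (adjusted p = 0.0713 and 0.106).

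In isotonic KCl the knockout and floxed cells had overlapping levels of all 8 genes. None of them passed edgeR's test, none had an unadjusted p under 0.05 and none was called by DESeq2. Over all 12782 genes tested, 2 were called, or 0.0156%, while 716 had an unadjusted p under 0.05 and DESeq2 called 177. The stromal marker sum was 212 to 419.6 CPM in the floxed cells and 152 to 207 CPM in the knockout, and its part in these values was not tested.

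Il10 was at 4.46, 11.3 and 7.42 CPM in the floxed libraries and at 7.0, 8.08 and 4.88 CPM in the knockout, with a 95% interval of the log2 fold change of −1.06 to 0.65. Socs1 was at 14.2, 23.9 and 19.4 CPM in the floxed libraries and at 18.0, 17.1 and 11.05 CPM in the knockout (log2 fold change −0.31, 95% interval −0.92 to 0.30). With the length slope as a covariate Socs1 passed the test at −0.43 (adjusted p = 0.0274). Socs3 was at 374, 274 and 313 CPM in the floxed libraries and at 301, 319.9 and 349 CPM in the knockout (95% interval −0.33 to 0.37).

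Cish was at 12.1, 12.5 and 10.4 CPM in the floxed libraries and at 11.7, 13.8 and 14.6 CPM in the knockout (log2 fold change 0.21, 95% interval −0.16 to 0.57). Jak2 was at 211, 143 and 161 CPM in the floxed libraries and at 153, 167 and 177 CPM in the knockout. Stat3 was at 132, 147 and 133 CPM in the floxed libraries and at 134, 136 and 136 CPM in the knockout. The receptor chains had intervals of −0.20 to 0.26 for Il10ra and −0.21 to 0.29 for Il10rb, and floxed and knockout ranges overlapped for each of the 8 genes.

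In each isotonic group the library with the highest length slope stood at an end of the range for several genes. Floxed library 1, with the highest slope of the 6, had the lowest Il10 and the highest Socs3 and Jak2 of these libraries. Knockout library 3, with the next highest slope, had the lowest Il10 and Socs1 and the highest Socs3 and Jak2 of the knockout. The part of the slope in these levels was tested only as a covariate, as given above.

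**Figure D3:**
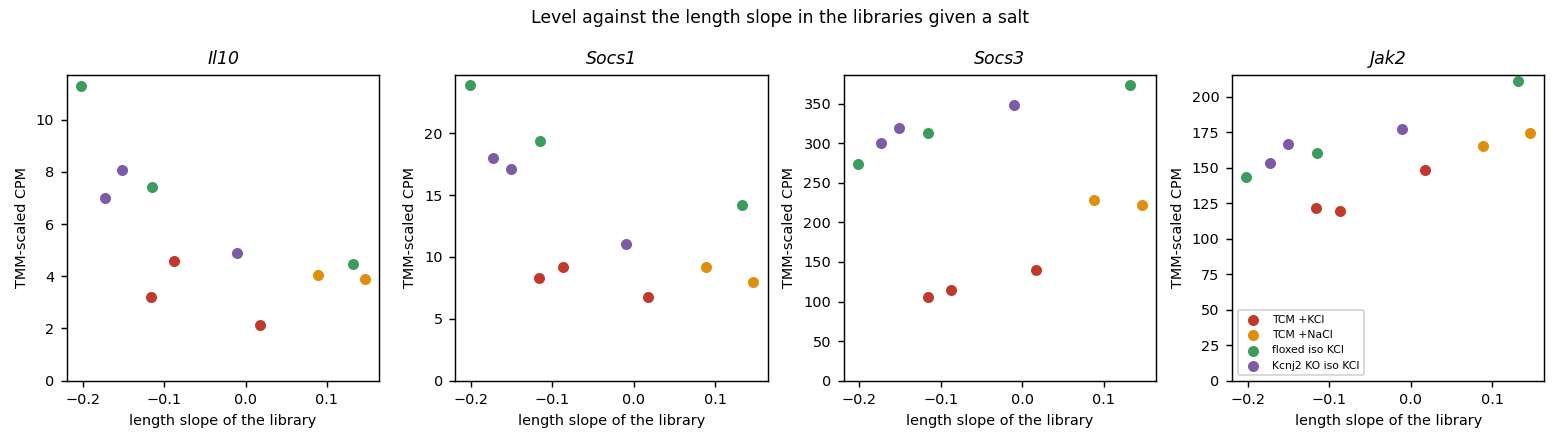
Level of 4 genes in TMM-scaled CPM (vertical axes, from 0) against the length slope of the library (horizontal axes, log2 level per log2 exon length), with 1 point per library given KCl or NaCl. Within the isotonic groups the libraries at the right, floxed library 1 at 0.1322 and knockout library 3 at −0.0103, had lower Il10 and Socs1 and higher Socs3 and Jak2 than the others of their group.

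Floxed cells in isotonic KCl were set beside the C57BL/6J groups, although strain label and treatment differ together and cannot be told apart. Against conditioned medium alone, 1 of the 8 genes was higher and 2 were lower. Of 14676 genes tested, 8.2% were called higher and 7.09% lower. DESeq2 called 5 of the 8 genes, and 3204 over all genes. Scaling by total counts moved the median of all genes by −0.17 and the higher share of calls from 53.6% to 26.1%. Il10 was 2.92-fold lower (log2 fold change −1.55, SE 0.28, adjusted p = 0.00202), with a value of −1.26 without floxed library 1 (adjusted p = 0.00138) and no call in a fit of these groups alone (adjusted p = 0.0545). Socs3 was 1.63-fold lower (log2 fold change −0.71, adjusted p = 0.00403), and −0.83 without that library. Il10rb was higher (log2 fold change 0.26, adjusted p = 0.0224), a call lost without conditioned medium library 2 or 3 or floxed library 3 (adjusted p = 0.0799, 0.0862 and 0.0605), while Socs1 had a 95% interval of −0.37 to 0.44.

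KCl in C57BL/6J cells against isotonic KCl in floxed cells gave 1 gene higher and 6 lower, where 12.3% of all genes were called higher and 15.4% lower. The median log2 fold change was −1.0 over the 8 genes and 0.00 over all genes. Socs3 was at −1.42 (adjusted p = 4.0e-06), Cish at −1.31 (adjusted p = 1.6e-04), Socs1 at −1.24 (adjusted p = 2.8e-04) and Il10rb at −0.79 (adjusted p = 1.2e-06). Stat3 was the gene called higher, at 0.50 (adjusted p = 9.9e-04). Il10 was at −1.22 (adjusted p = 0.00871) with overlapping ranges, and −1.50 without floxed library 1 (adjusted p = 5.8e-04). Jak2 was at −0.40 (adjusted p = 0.0252), also with overlapping ranges, and its call was lost without floxed library 1 (log2 fold change −0.23, adjusted p = 0.109) or KCl library 1 or 2 (adjusted p = 0.116 and 0.0933). In a fit of these groups alone Il10, Stat3 and Jak2 were not called (adjusted p = 0.113, 0.0692 and 0.230).

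The order of the group means differed between the genes. Il10 was highest in conditioned medium, followed by the floxed and knockout cells in isotonic KCl, the control, NaCl and KCl, and only the step from conditioned medium to the floxed cells was free of overlap between neighbours. Cish was highest in the knockout at 13.4 CPM ± 1.47 (SD, n = 3) and in the floxed cells at 11.7 CPM ± 1.07 (SD, n = 3), above the 8.45 CPM ± 1.07 (SD, n = 3) of conditioned medium alone. For Cish the floxed cells did not pass edgeR's test against conditioned medium (log2 fold change 0.46, adjusted p = 0.1). The knockout was not tested against conditioned medium. Stat3 was highest with KCl at 195 CPM ± 27.6 (SD, n = 3) and lowest in the control at 96.8 CPM ± 5.07 (SD, n = 3). Il10rb was lowest with KCl at 108 CPM ± 5.76 (SD, n = 3), and its means were 187 CPM in the floxed cells, 192 CPM in the knockout and 185 CPM in the control.

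Other genes of the pathway were taken as 5 lists, whose counts stand against the shares of all genes called: 27.2% higher and 26.4% lower in conditioned medium, 26.6% and 27.4% with KCl, and 13.7% and 14.9% with NaCl. Among 9 other JAK and STAT genes, 6 were higher and 1 lower in conditioned medium against control, with a median log2 fold change of 0.28. With total-count scaling 3 were higher and 3 lower, 3 were higher without conditioned medium library 3 or control library 2, and none was lower without any 1 library of these groups. Stat5a, which transmits GM-CSF signals, had a log2 fold change of 1.32 and Tyk2, a kinase of the IL-10 receptor, 0.87. With KCl against conditioned medium none was higher and 5 were lower, with a median of −0.76. Tyk2 was at −1.04 and Stat6, which transmits IL-4 signals, at −0.97. The higher count was 1 with DESeq2, with no filter, with a replicate block or without KCl library 1 or 2. It was 2 with the length slope as a covariate. Stat4 is counted among the 5 lower genes and had no count in any KCl library, so it has no fold. The median is −0.76 also with Stat4 at the bound that 3 counts over the KCl group set. With NaCl 1 was higher and 2 were lower, with Stat2 at 0.81 and Jak3 at −0.61, while a fit of these groups alone gave 3 higher and 4 lower, and none was lower without NaCl library 2.

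Among 13 other brakes of the pathway (SOCS, PIAS and phosphatase genes), 5 were higher and 4 lower in conditioned medium, with a median log2 fold change of 0.12, and with total-count scaling 3 were higher and 7 lower. The phosphatase genes Ptpn1 and Ptpn6 were at 1.59 and 1.34, and Pias3, which encodes an inhibitor of STAT3, was at −1.0. With KCl 6 were higher and 2 lower (4 lower with total-count scaling or without KCl library 3, and 1 lower without KCl library 1 or conditioned medium library 3), with Socs7 at 1.02, Ptpn2 at 0.75 and Ptpn6 at −0.85. With NaCl 6 were higher and 1 lower, with Pias2 at 0.89, Socs7 at 0.60 and Ptpn6 at −0.67. The list medians were 0.23 with KCl and 0.25 with NaCl, while the log2 fold changes of Socs1 and Socs3 were negative in both comparisons.

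Of 21 genes of the IL-10 family and the gp130 cytokines and receptors, 14 were tested. In conditioned medium 8 were higher and 3 lower (median log2 fold change 0.73), led by Il6 at 7.35 and Il27 at 5.62, both cytokines that signal through gp130 and STAT proteins. Il6ra, the IL-6 receptor chain, was at −1.59, and Il11 was at −5.93. The Il11 value rests on few counts in conditioned medium, where its mean was 0.182 CPM and 3 counts stand at 0.175 to 0.19 CPM. With KCl 4 were higher and 7 lower (median −0.45), or 2 and 8 with total-count scaling, with Lif at −1.95, Il6ra at −1.90 and Il11ra1 at 1.41. With NaCl 3 were higher and 5 lower (median −0.37), with Il6ra at −1.78, Lif at −1.57 and Il6st, which encodes gp130, at 0.50. The higher count was 1 without conditioned medium library 2 or NaCl library 2. It was 5 in a fit of these groups alone and 6 with the length slope covariate.

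A list of 12 genes that IL-10 and STAT3 induce in macrophages had 10 higher and 1 lower in conditioned medium (median log2 fold change 0.76). Pim1, a kinase gene, was at 3.57 and Il1rn, the IL-1 receptor antagonist, at 2.17. With KCl 3 were higher and 5 lower (median 0.00), with Pim1 at 0.48, Nfil3 at 0.45, Bcl3 at −1.05 and Zfp36, which encodes an mRNA decay factor, at −0.95. With NaCl 1 was higher and 3 were lower (median 0.13), but none was higher with total-count scaling or without conditioned medium library 3 or NaCl library 2, and 5 were in a fit of these groups alone, with Nfil3 at 0.51, Zfp36 at −0.75 and Bcl3 at −0.70. Many of these genes also respond to other inflammatory signals.

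Among 21 regulators of Il10 transcription, 12 were higher and 3 lower in conditioned medium (median log2 fold change 0.36), or 8 and 6 with total-count scaling, with Batf at 3.70, Nfkb1 at 1.81, Crem at −1.88 and the kinase gene Rps6ka5 at −1.58. With KCl 8 were higher and 6 lower (median −0.07), and with total-count scaling the balance turned to 6 higher and 10 lower. Maf, whose product drives Il10 in macrophages, was at −1.16 and Mapk14, which encodes p38 alpha, at −1.37, while Crem was at 1.3 and Cebpb at 1.09. With NaCl 6 were higher and 4 lower (median 0.06), or 2 lower without NaCl library 1 and 1 without NaCl library 2, with Maf at −1.38, Sik1 at −1.13, Crem at 0.98 and Creb1 at 0.47. No gene of the 5 lists was called between knockout and floxed cells in the reported fit. DESeq2, which called 177 genes in all, had 1 gene of the IL-10 and STAT3 induced list lower. The length slope covariate gave 904 calls in all. Among these, 1 JAK and STAT gene was higher, and 3 genes of the IL-10 family list and 1 regulator were lower. The IL-10 and STAT3 induced list then had 1 higher and 2 lower.

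**Figure D4:**
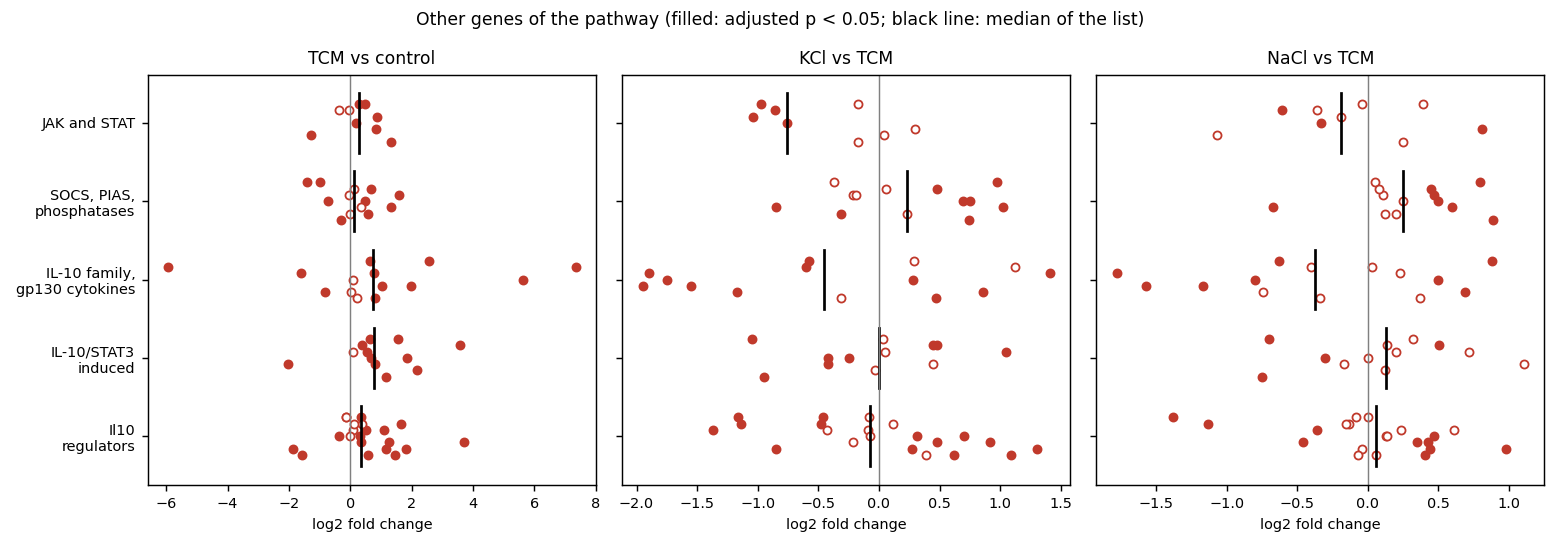
Log2 fold change (horizontal axes, a separate scale in each panel) of the tested genes of the 5 pathway lists (rows) in 3 comparisons, with 1 point per gene, filled at an adjusted p under 0.05, and a black line at the list's median. Genes with no count in a compared group are not drawn. Il6 at 7.35 and Il11 at −5.93, the latter with few counts in conditioned medium, lie at the ends of the conditioned medium panel.

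Genes with the pattern most like each member were ranked by the root mean square difference of log2(CPM + 1), centred on each gene's mean, over the 17 libraries and 8743 candidate genes. Fam43a (0.323), Kctd12 (0.422) and Fgl2 (0.429) were most like Il10, whose own SD on this scale was 0.867. Fpr2 (0.283), a formyl peptide receptor, Hcar2 (0.312) and Lad1 (0.325) were most like Socs3, with an SD of 2.097. Samsn1 (0.203), Fam241a (0.288) and Lztfl1 (0.299) were most like Socs1, and Mfsd7a (0.214), Gbp6 (0.226) and Osbpl3 (0.241) most like Cish.

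For Jak2 the nearest genes were Pla2g4a (0.104), Src (0.110) and Reps1 (0.118), and for Stat3 they were Nxf1 (0.081), Bap1 (0.081) and Usp7 (0.090). Lair1 (0.127), Cant1 (0.129) and Micu2 (0.135) were nearest to Il10rb. The nearest to Il10ra were Wdr82 (0.070), Pigm (0.081) and Uba2 (0.086), against an SD of Il10ra of only 0.115.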

How the data were processed

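Raw counts per Ensembl gene identifier were deposited by the authors for 17 libraries of mouse bone marrow-derived macrophages. The submitters' processing notes name DESeq2 1.30.1, with no role stated. No aligner, counter, genome build or strandedness is given in the sources used here. Symbols, positions and exon lengths came from GENCODE M21 (GRCm38). Identifiers without a symbol (260) held 0.0121% of counts and were kept. Exons of Cish and Il10rb overlap predicted genes that had at most 10 counts in all libraries together, apart from the Stat3 overlap given above.

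From the deposited counts, genes were filtered with filterByExpr by group and tested with edgeR 4.0.16 (TMM scaling, robust quasi-likelihood F test, 2-sided) in R 4.3.3, with Benjamini-Hochberg adjustment over all genes tested and a threshold of 0.05. The 11 C57BL/6J libraries shared a fit, the 6 isotonic libraries another, and comparisons between strain labels used all 17. SD and SE cover the spread between libraries. Alternatives were DESeq2 1.42.0, other scalings and filters, a length slope covariate (slopes over 10578 genes with a mean of at least 50 counts), a replicate block, fits of the compared groups alone and leaving out each library. The scripts were tested on simulated counts. Groups came from the strain and treatment labels. Deviations of same-numbered libraries correlated above 0.1 in all 3 control and conditioned medium pairs (0.101 to 0.503) and all 3 control and KCl pairs (0.177 to 0.619). They did not in every pair of the other comparisons. Some differently numbered pairs also did, such as control library 2 with conditioned medium library 1 (0.345) and control library 1 with KCl library 2 (0.262). The data therefore do not settle whether the numbers pair libraries, and the labels state no shared batch. The reported fits used no pairing. Counts differed between replicates by more than sampling noise in every group, so no library was merged with another.

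The 8 genes, pathway lists and markers were chosen with earlier results of these data known. The genes named from each list are up to 2 in each direction with the largest absolute log2 fold change among those called at 10 CPM or more on average in either group. Stat4 was named after its values were seen, and 1 gene that the rule names is not reported here.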

Additional observations from a re-analysis of the deposited data

How the results depend on the processing

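Of 976 values of the 8 genes under the alternatives, 903 kept their side of the threshold with no called value changing sign, 49 lost the call, 20 gained one and 4 changed sign with a call in either setting: Il10ra with total-count scaling in conditioned medium (−0.11), KCl (−0.34) and NaCl (−0.31) against control, and Jak2 in isotonic floxed cells against conditioned medium with the length slope covariate (0.17). A further 27 of the 903, called under neither setting, changed sign, with values from −0.30 to 0.17. The cause was not tested. The number of genes called for conditioned medium against control (7773), KCl against conditioned medium (7830), KCl against control (10003) and NaCl against control (8444) stayed within 1.5 times under the alternatives run. NaCl against conditioned medium called 4161 genes, 6245 in a fit of these groups alone, and 2224 to 3465 without 1 library (2602 without NaCl library 1 and 2224 without NaCl library 2). KCl against NaCl called 4591 genes, but 8 with those groups alone, 235 with the length slope covariate, and 960 to 6989 without 1 library (3018 without KCl library 1, 6989 without KCl library 3, 2103 without NaCl library 1 and 960 without NaCl library 2). Knockout against floxed called 2 genes, 177 with DESeq2, 12 with no filter, 904 with the length slope covariate and 0 to 14 without 1 library (14 without floxed library 1, and 0 without floxed library 3 or any 1 knockout library). Isotonic floxed cells against conditioned medium called 2245 genes, 411 with those groups alone and 1081 to 5589 without 1 library (5589 without floxed library 1, and 1081 to 1267 without any other). KCl against isotonic floxed cells called 4076 genes, 1218 with those groups alone and 6757 with the length slope covariate. For the knockout the fit of the compared groups alone is the reported fit.

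With the replicate number as a block, 8121 genes were called for conditioned medium against control, 8166 for KCl, 4712 for NaCl, 5811 for KCl against NaCl and 0 for the knockout. The block changed no call of the 8 genes. Same-numbered libraries correlated above 0.1 in 11 of 15 C57BL/6J pairs, against 10 of 30 with different numbers, and in 1 of 3 isotonic pairs. Depth limits Cish and Socs1 in the control, with 7 to 28 counts a library.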
